A study of Homo sapiens with 22 samples.

Results

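The strongest H520-biased reporters were 70 of the 211385 reporter tags that had at least 100 reads in both plasmid inputs, and of 238017 tags listed in any library. They were chosen from the measured values. Activity was log2 of the tag's TPM (its reads scaled to the library total) plus 0.5, over its TPM in the H520 plasmid input plus 0.5, minus the median of the library, so that 0 is the typical reporter of the pool and each unit is a doubling. A member had a mean activity of at least 3 over the 10 H520 RNA libraries (its H520 activity) and exceeded its mean over the 10 A549 RNA libraries (its A549 activity) by at least 1. These limits fix that every member was strong in H520 and stronger there than in A549, so those values are given as descriptions, with no test.

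The study transfected a pool of luciferase reporter plasmids into H520, an established squamous carcinoma line of the human lung, and A549, an established line of lung adenocarcinoma, to characterise functional variants at lung cancer risk loci. H520 cells received 10 µM benzo(a)pyrene (BaP) for 42 h, or DMSO. A549 cells received 10 µM BaP for 18 h, or DMSO. The 4 groups comprise 5 transfections each, and the plasmid DNA put into each line was sequenced once as its input. The titles of the inputs differ in version, v2 for H520 and v1 for A549, and what the versions are is not stated in the labels. Each group is 1 established cancer line, and the reporters were ectopic plasmids outside the chromosomes. Tags are synthetic and no transcript of the cells was measured, so the lines could not be checked against their marker genes.

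In a reporter assay of this kind, a cloned DNA fragment drives transcription of a reporter gene that carries a short tag, and the abundance of the tag in RNA relative to plasmid DNA reads out how strongly the fragment promotes transcription. A fragment that binds factors present in one cell type can drive its reporter there and stay near background in another, which is how lineage-specific regulatory elements are found. Adenocarcinoma and squamous carcinoma of the lung express different lineage transcription factors. BaP, a component of tobacco smoke, is a ligand of the aryl hydrocarbon receptor, which then binds DNA and raises transcription of xenobiotic-metabolising genes. Fragments usually carry several tags, and no table pairing tags with fragments or alleles was used here, so members may share a fragment and are not independent of each other.

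The 8 members with the highest H520 activity are shown because they carry the upper end of the pattern. Tags are written as the files give them, all marked as minus strand there, with the 12 variable bases in capitals and the 3 bases common to all tags in lower case.
Tag gccattccgagaggc: GCCATTCCGAGAggc
Tag ggcgagcgttaaggc: GGCGAGCGTTAAggc
Tag ctggcgtactgaggc: CTGGCGTACTGAggc
Tag gccatttcttagggc: GCCATTTCTTAGggc
Tag ctaccgattcggggc: CTACCGATTCGGggc
Tag ggccttatagcgggc: GGCCTTATAGCGggc
Tag ccggattatcgaggc: CCGGATTATCGAggc
Tag cattccgatcaaggc: CATTCCGATCAAggc

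Their H520 activities were 4.16, 4.14, 4.13, 4.09, 4.08, 4.07, 4.07 and 4.05, in the order printed, which put the highest at 17.9 times the typical reporter. Their A549 activities were 2.39, 2.22, 2.25, 2.55, 2.20, 1.54, 2.14 and 2.46. All 8 were therefore active in A549 too.

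Over all members, H520 activity ran from 3.0 to 4.16 with a median of 3.85, and A549 activity from 0.70 to 2.56 with a median of 2.04. The difference, H520 minus A549, ran from 1.04 to 2.83 with a median of 1.71. Of the eligible tags, 0.119% met the H520 limit, 0.379% met the limit on the difference and 0.0331% met both. Members were 27.8% of the 252 tags that met the H520 limit. The members were not silent in A549: 66 of 70 had an A549 activity of at least 1, and even the lowest A549 activity of a member was above that of 96.1% of eligible tags. Their bias toward H520 was a difference of degree between lines that both transcribed them.

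At the H520 limit, the members just inside were agccgaatcgcgggc at 3.0 and agtcggaacttcggc at 3.02, and the tags just outside were gtcataaggcttggc at 2.99 and ccaacttattgaggc at 2.98. At the limit on the difference, the members just inside were gccgaggtccggggc at 1.04 and tgcgtacgagtaggc at 1.04, and the tags just outside were agccatcttggcggc at 0.986 and aacggtaagagaggc at 0.964. The 4 members named lie closer to their limits than the SD of their activity between 5 H520 transfections. For agccgaatcgcgggc, which was the closest to the H520 limit, the activity was 2.97 ± 0.11 in H520 with BaP and 3.03 ± 0.12 in H520 with DMSO (SD, n = 5 each).

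The members fell into 2 sets by H520 activity. Between the lowest of 48 tags at 3.52 and the highest of 22 tags at 3.29 lay a gap of 0.22, the widest between neighbouring members, where the next widest was 0.091. The 48 tags above it had a median H520 activity of 3.94, and 15 of them reached 4 or more. The 22 tags below it had a median of 3.10 and continued the distribution of weaker H520-biased tags across the limit: among all tags with a difference of at least 1, 28 lay between 2.75 and 3, 21 between 3 and 3.25, 1 between 3.25 and 3.5, 4 between 3.5 and 3.75, 29 between 3.75 and 4, and 15 between 4 and 4.25. The sets were drawn after the values were seen and carry no test. They differed in A549 as well, with median A549 activities of 2.20 in the upper set and 1.51 in the lower one, while the median difference between the lines was similar at 1.74 and 1.58.

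The median activity of the members was 3.86, 3.97, 3.69, 4.08 and 3.85 in H520 transfections 1 to 5 with BaP, and 3.74, 3.90, 3.62, 4.05 and 3.76 with DMSO. In A549 transfections 1 to 5 it was 2.20, 2.21, 1.88, 2.02 and 1.76 with BaP and 2.07, 2.0, 2.23, 2.10 and 1.87 with DMSO. The 2 lines did not overlap. The lowest H520 library lay above the highest A549 library for all 70 members taken singly, where 15.4% of eligible tags were separated in this way, but the rule used these libraries, so nothing is read from that count. The narrowest such gap was 0.42, in gccgaggtccggggc.

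The libraries of 1 group differed from each other for all members together. The shares of all eligible tags are not given beside the counts that follow, so the counts are not read as a trait of the members. In H520, transfection 4 was the highest library for 61 of 70 members with BaP and for 65 with DMSO. Transfection 3 was the lowest for 61 with BaP and for 59 with DMSO. Among 103 tags at the H520 limit but within 1 of their A549 activity, the median was also highest in H520 transfection 4. It was 3.26 there with BaP and 3.31 with DMSO. Among 402 tags with an H520 activity of 1 to 3 and a difference of at least 1, transfection 5 was highest instead. Their median there was 1.99 with BaP and 1.96 with DMSO. In A549, transfection 5 was the lowest for 67 members with BaP and for 51 with DMSO. That library with BaP was also the one in which 79 tags that pass the H520 limit but are A549-biased took most reads, 8.24% of its counts, where they took 2.37% in the lowest of the A549 libraries with BaP; their part in the members' values was not tested.

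Tags of the upper set moved together from library to library. After the mean of each group was removed, activities of 2 upper tags over the 20 RNA libraries had a median Pearson r of 0.93 over 1128 pairs. It was 0.66 for an upper with a lower tag over 1056 pairs and 0.65 for 2 lower tags over 231 pairs. In the 10 H520 libraries these medians were 0.97, 0.87 and 0.81, so there the lower tags moved with the upper ones too. In the 10 A549 libraries they were 0.91, 0.52 and 0.56. These are descriptions over 20 libraries that all tags share, together with the depth and centring of each library. The upper tag least like its own set was cgattgcgtcatggc, with a median r of 0.42, and the next was cgtagctcttgcggc at 0.80. These 2 tags also had the lowest H520 activities of the upper set, 3.52 and 3.53. The other 46 lay between 3.60 and 4.16.

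The tag gccattccgagaggc had the highest H520 activity. Its level was 119, 124, 108, 136 and 122 TPM in H520 with BaP, and 116, 125, 107, 141 and 113 TPM in H520 with DMSO. In A549 it was 39.5, 36.5, 28.6, 28.7 and 23.1 TPM with BaP and 32.2, 34.1, 38.0, 33.9 and 27.1 TPM with DMSO, against 6.69 TPM in the H520 input and 6.06 TPM in the A549 input. The H520 libraries were all higher than the A549 libraries, and all RNA libraries were above both inputs. As activity this is 4.17 ± 0.12 in H520 with BaP and 4.15 ± 0.15 in H520 with DMSO, and 2.35 ± 0.24 in A549 with BaP and 2.42 ± 0.14 in A549 with DMSO (SD, n = 5 each).

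The tag ggcgagcgttaaggc held the largest share of reads. It stood at 575, 621, 539.7, 690.2 and 565 TPM in H520 with BaP and 536, 594, 502, 681 and 537 TPM in H520 with DMSO, against 182, 169, 122, 127 and 106 TPM in A549 with BaP and 147, 145, 155, 142 and 123 TPM in A549 with DMSO. The inputs held 34.6 TPM for H520 and 29.6 TPM for A549. With 9197 reads in the H520 input, it was the most deeply covered member, and counting error of the input alone gives its H520 activity of 4.14 an exact Poisson 95% interval of 4.11 to 4.17. The spread between transfections was wider, with an activity of 4.17 ± 0.14 in H520 with BaP and 4.10 ± 0.18 in H520 with DMSO (SD, n = 5 each). The next largest shares of H520 RNA were those of agatttctaggaggc and ttagctatctcgggc, with means of 0.0431% and 0.0365% of counts over 10 libraries, beside 0.0584% for ggcgagcgttaaggc.

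All members together took 1.15 ± 0.104% of reads in H520 with BaP and 1.10 ± 0.120% in H520 with DMSO, against 0.308 ± 0.0548% in A549 with BaP and 0.315 ± 0.0323% in A549 with DMSO (SD, n = 5 each). They were 0.0807% of the H520 input and 0.0660% of the A549 input. Most of this came from the upper set, with 1.01 ± 0.0968% of reads in H520 with BaP and 0.964 ± 0.110% with DMSO. Every member was read in all 22 libraries, with at least 3251 reads in each H520 RNA library and at least 355 in each A549 one. No molecular identifiers are described, so the reads cannot be taken as independent molecules. The error of counting RNA molecules is therefore not known from these counts. The intervals given cover counting error of input reads only.

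The size of the bias depended on which input it was measured against. The inputs carry different version labels, and version and line cannot be told apart. In the rule, the H520 input is the denominator for both lines, so it drops out of the difference. Members were scarcer in the A549 input: 64 of 70 had less TPM there than in the H520 input. The median log2 ratio of A549 input over H520 input was -0.28, with -0.30 in the upper set and -0.11 in the lower set. It was -0.0087 over all eligible tags, with quartiles of -0.20 and 0.18. In the 402 weaker H520-biased tags (H520 activity of 1 to 3, difference of at least 1) it was -0.18. The rule leaves the A549 input out and so can favour tags scarce there, and nothing is read from the count of 64. Against the own input of each line, the median difference became 1.43 in place of 1.71, with a range of 0.76 to 1.90. Then 66 members still differed by at least 1 and 0 by at least 2, where 12 had differed by at least 2 by the rule. The 4 that fell under 1 were gccgaggtccggggc, cgactacgtaatggc, tgcgtacgagtaggc and agccgaatcgcgggc.

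The order by bias went with the inputs most in the upper set. Across the 48 upper tags, the difference by the rule and the log2 ratio of the inputs correlated at -0.84 (Pearson's r) and -0.81 (Spearman's rho), and with own inputs these were -0.034 and 0.032. Across the 22 lower tags they were -0.46 and -0.32 by the rule and 0.32 and 0.30 with own inputs, and across all 70 members -0.72 and -0.70 by the rule and 0.11 and 0.10 with own inputs. The points share the same 20 RNA libraries and 2 input libraries, and the own-input difference contains the ratio itself, so this is a description. The spread of the difference across upper tags was an SD of 0.28 by the rule and 0.15 with own inputs.

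The 8 members with the largest difference by the rule are shown because they show how far this ratio moves a value. The 12 variable bases are in capitals.
Tag cgtagctcttgcggc: CGTAGCTCTTGCggc
Tag ggccttatagcgggc: GGCCTTATAGCGggc
Tag ccgatcctcgttggc: CCGATCCTCGTTggc
Tag gaacgattacgcggc: GAACGATTACGCggc
Tag accctagctccgggc: ACCCTAGCTCCGggc
Tag agttaacgttacggc: AGTTAACGTTACggc
Tag cggtcgtcaaagggc: CGGTCGTCAAAGggc
Tag actaccgcgatgggc: ACTACCGCGATGggc

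Their differences were 2.83, 2.53, 2.30, 2.14, 2.12, 2.11, 2.09 and 2.08 by the rule, in the order printed, and 1.83, 1.70, 1.49, 1.53, 1.63, 1.29, 1.66 and 1.43 against own inputs. Their A549 input was 0.287, 0.535, 0.503, 0.631, 0.626, 0.553, 0.705 and 0.617 times the H520 input. All 8 were scarcer in the A549 input, and all 8 differences were smaller against own inputs.

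The first of them, cgtagctcttgcggc, was also the least covered member, with 319 reads in the H520 input and 115 in the A549 input. Its H520 activity of 3.53 had an exact Poisson 95% interval of 3.37 to 3.69 from the counting of the input. It stood at 16.7, 19.7, 15.8, 22.2 and 17.4 TPM in H520 with BaP and 17.1, 19.3, 15.6, 22.3 and 15.3 TPM in H520 with DMSO, against 2.47, 2.06, 1.75, 1.94 and 1.28 TPM in A549 with BaP and 1.96, 1.74, 1.83, 1.99 and 1.86 TPM in A549 with DMSO. By the rule, the lines were far apart in every library, with the lowest H520 activity 2.34 above the highest A549 activity. The tag was chosen for its difference in these libraries, so this gap is a description. Against own inputs its difference was 1.83.

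The tag ggccttatagcgggc combined a large difference with deeper coverage. It stood at 163, 180.1, 143, 184 and 163 TPM in H520 with BaP and 154, 167, 136, 184 and 153 TPM in H520 with DMSO, against 31.7, 31.8, 22.3, 23.9 and 18.5 TPM in A549 with BaP and 24.7, 27.1, 27.4, 26.2 and 20.7 TPM in A549 with DMSO. Its inputs held 2588 reads in H520 and 1738 in A549. The difference was 2.53 by the rule and 1.70 with own inputs, close to the 1.70 of ggcgagcgttaaggc.

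With own inputs the largest difference was that of tggcttatgaaaggc, a lower tag, at 1.90. By the rule it was 2.06, and its activity was 3.06 ± 0.10 in H520 with BaP and 3.03 ± 0.10 in H520 with DMSO, against 0.98 ± 0.089 in A549 with BaP and 0.99 ± 0.10 in A549 with DMSO (SD, n = 5 each). With cgtagctcttgcggc and ccgatcctcgttggc it was among the 3 members with the lowest A549 activity, 0.70, 0.79 and 0.99 for cgtagctcttgcggc, ccgatcctcgttggc and tggcttatgaaaggc. At the other end, ggagcgttatttggc, gccatttcttagggc and gctgctttagtaggc had the highest A549 activities, 2.56, 2.55 and 2.54. Even these were 2.75, 2.90 and 2.82 times as active in H520 by the rule.

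BaP was compared with DMSO within H520, a contrast that the rule did not use because it averaged both treatments. The main test did not pair libraries by transfection number, and no member passed it. Of 70 members tested, 0 were called by edgeR's quasi-likelihood test with Benjamini-Hochberg adjustment over 223998 tags. Of all tags, 0.0% were called higher and 0.0% lower. With the number as a replicate block, 5 members were called, as given below. In the main test, without the block, the lowest adjusted p of a member was 0.998. DESeq2 called 0 members too, and 5 higher and 6 lower of the 19886 tags that it gave an adjusted p. At an unadjusted p under 0.05, 1 member was higher and 0 lower, where 2.36% and 2.35% of all tags were.

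The fold changes in H520 were small and mostly of one sign. All 70 members passed the filter on low counts, and 65 had a positive log2 fold change of BaP over DMSO, where 50.0% of all tags did. The median was 0.066, against -7.5e-05 over all tags. The upper set held 48 positive of 48, between 0.018 and 0.11, and the lower set 17 of 22, between -0.061 and 0.10. Upper tags move together between libraries, so their common sign is not 48 independent observations. In the unpaired fit, the median SE of the log2 fold change was 0.082 in the upper set, above its median of 0.072. It was 0.050 in the lower set, above its median of 0.048. If the transfection numbers mark pairs, these SEs count variation shared by a pair as error. With the number as a replicate block, the 5 members called, picked by their p in that fit, had SEs of 0.016 to 0.018. The median activity of the members was 3.89 ± 0.15 with BaP and 3.81 ± 0.17 with DMSO (SD, n = 5 each), and the groups overlapped. Taken by transfection number, BaP minus DMSO was 0.12, 0.074, 0.071, 0.028 and 0.093 for transfections 1 to 5, positive in all 5, whereas in A549 it was 0.13, 0.21, -0.35, -0.086 and -0.11, positive in 2 of 5.

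Leaving out 1 of 4 libraries moved this median by over 1.5 times. It was 0.018 without BaP transfection 4, with 55 positive members, and 0.028 without DMSO transfection 3, with 56. It was 0.10 without BaP transfection 3, with 67, and 0.13 without DMSO transfection 4, with 68. Without the last of these libraries, 39 members were higher at an unadjusted p under 0.05 in edgeR, where 2.66% of all tags were, and 0 were called. Without transfection 3 in both treatments, the median was 0.064 with 65 positive members. With the transfection number as a replicate block, edgeR called 5 members higher, where 0.0384% of all tags were, and 54 at an unadjusted p under 0.05, where 3.13% of all tags were, but the labels do not say that the numbers pair the libraries.

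The member with the smallest unadjusted p for BaP in H520 was cgattgcgtcatggc. It stood at 32.4, 31.3, 28.2, 32.4 and 33.7 TPM with BaP and 29.5, 27.7, 26.9, 29.2 and 33.7 TPM with DMSO, and the groups overlapped. BaP over DMSO came to 0.10 on the log2 scale with an SE of 0.049, and the adjusted p from edgeR was 0.998. The next 3 were ccgatcctcgttggc, aagtttgatggcggc and gtcgttacttgcggc, with log2 fold changes of 0.10, 0.072 and 0.063. None of the 4 passed the adjusted test.

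In A549, BaP called 0 of 70 members by edgeR, with 0.0% of 223556 tags called higher and 0.0% lower, and DESeq2 called 0 as well. At an unadjusted p under 0.05, 0 members passed, where 1.17% of tags were higher and 1.42% lower. The log2 fold change was positive for 31 members and negative for 39, with a median of -0.0034, and 49.4% of all tags were positive. The sets differed in sign, with 12 of 48 upper tags and 19 of 22 lower tags positive. With 1 library left out, the upper median ran from -0.071 to 0.046 and the lower one from 0.017 to 0.095. Leaving out 1 library moved the members' median between -0.061 and 0.055, and it was positive without DMSO transfection 3 or 4 or BaP transfection 3 or 5. Without BaP transfection 5 the median was 0.055 and 61 members were positive. The 2 smallest p-values belonged to gcgttacgaaacggc, at 0.12 on the log2 scale with an SE of 0.060 and an adjusted p of 0.9999 from edgeR, and to gctaatcgtcggggc, with 0.11.

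The BaP response of H520 minus that of A549 was tested as an interaction in edgeR over the 20 RNA libraries, where exposure time and line cannot be told apart. It called 0 of 70 members, with 0.0% of 225212 tags called higher and 0.0% lower. At an unadjusted p under 0.05, 0 members passed, where 1.81% of tags were higher and 1.65% lower. The members with the smallest p were cgattgcgtcatggc, with a log2 difference of responses of 0.13 (SE 0.088), and aatatccgagatggc, with 0.16 (SE 0.12). The difference was positive for 54 members, with a median of 0.068, where 50.0% of all tags were positive. By set, 48 of 48 upper tags were positive at a median of 0.084, and 6 of 22 lower tags at a median of -0.018. In this fit, also unpaired, the median SE was 0.14 in the upper set and 0.085 in the lower set, above the size of both medians. With 1 library left out, the lower median ran from -0.052 to 0.023, with 4 to 16 positive tags, so its sign was not stable. The upper median ran from 0.019 to 0.15. Leaving out 1 library moved the members' median by over 1.5 times in 9 cases. It was lower without A549 BaP transfection 5 (0.0015), H520 BaP transfection 4 (0.012), H520 DMSO transfection 3 (0.025), A549 BaP transfection 3 (0.033) and A549 DMSO transfection 3 (0.039). It was higher without H520 BaP transfection 3 (0.11), A549 BaP transfection 2 (0.12), A549 BaP transfection 1 (0.12) and H520 DMSO transfection 4 (0.13).

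Beside the 402 weaker H520-biased tags, which had an H520 activity of 1 to 3 and a difference of at least 1, the upper set had a larger spread between transfections and the lower set a similar one. The median SD over 5 transfections was 0.15 in H520 with BaP and 0.17 in H520 with DMSO for the upper set, and 0.10 and 0.12 for the lower set. It was 0.095 with BaP and 0.11 with DMSO for the weaker tags, 0.26 and 0.27 for the A549-biased tags that met the H520 limit, and 0.094 and 0.10 over all eligible tags. For the 103 strong balanced tags, at the H520 limit but within 1 of their A549 activity, it was 0.068 and 0.087. Both sets of members lay above these last values. In H520 the weaker tags had a median log2 fold change of BaP over DMSO of 0.087, beside the 0.072 of the upper set and the 0.048 of the lower one, and a median SE of 0.051 against 0.082 and 0.050. At an unadjusted p under 0.05, 113 of them were higher and 4 lower. The 103 tags that also met the H520 limit but lay within 1 of their A549 activity had a median of -0.063. Of them, 11 (10.7%) were positive, where 50.0% of all tags were. At that p, 0 of the 103 were higher and 45 (43.7%) lower. These sets share all libraries with the members and none of their tags was called, so the differences between sets are values side by side, with no test.

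The sequence of the tags themselves differed between the sets in base composition. The 12 variable bases had 43.4% ± 11.5 G and C in the upper set and 56.4% ± 11.8 in the lower set (SD across tags, n = 48 and 22 tags), against 47.7% ± 12.5 over all eligible tags. Weaker H520-biased tags had 49.5% and strong balanced tags 54.0%. The tags of all members together lay at 47.5%, near the pool. No test was made, since tags of 1 fragment are not independent.

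A short motif list was searched in the 12 variable bases on both strands. TGANTCA (the AP-1 site), CANNTG (the E-box) and CATG (a core motif of p53 family sites) were found in 0 members, and in 0.0624%, 1.08% and 1.81% of eligible tags. A CATG preceded by CA is also an E-box, so these motifs can overlap. GCGTG (the core of the xenobiotic response element), AATAAA (the polyadenylation signal) and ACAAT (the SOX core) occurred in 0 eligible tags. GGAA (the ETS core) was found in 7 members (10%), 3 of them upper tags, and in 5.0% of eligible tags. These letters lie in the transcribed tag and not in the cloned fragment, and a match is a description.

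The 7 members that hold GGAA or its reverse complement are shown with the match in capitals.
Tag gccattccgagaggc: gccaTTCCgagaggc
Tag cattccgatcaaggc: caTTCCgatcaaggc
Tag gaatgagtttccggc: gaatgagtTTCCggc
Tag gttccgacgaccggc: gTTCCgacgaccggc
Tag ccggaatctacgggc: ccGGAAtctacgggc
Tag tgacggaatcttggc: tgacGGAAtcttggc
Tag agtcggaacttcggc: agtcGGAActtcggc

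Their H520 activities were 4.16, 4.05, 3.83, 3.12, 3.07, 3.06 and 3.02 and their A549 activities 2.39, 2.46, 1.95, 1.82, 1.37, 1.86 and 1.31, in the order printed. They were 6.25% of the upper set and 18.2% of the lower set.

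Of 2415 pairs of members, the closest differed at 3 of the 12 positions and the median pair at 9. Mismatches were not counted over all eligible tags, so these values are not read as a trait of the members. A run of 8 or more equal bases at any offset was shared by 8 pairs (0.331%), against 0.177% of all pairs of eligible tags.

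The pair with the longest shared run, chosen after the values were seen, shows how alike 2 members could be when read at an offset. The 11 shared bases are in capitals.
Tag gaacgattacgcggc: GAACGATTACGcggc
Tag agaacgattacgggc: aGAACGATTACGggc

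Both had an H520 activity of 3.97. Their A549 activities were 1.83 and 2.40 by the rule, and 2.44 and 2.61 against the A549 input. The A549 input held 0.631 times as much of the first as the H520 input did and 0.855 times as much of the second.

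Tags that differ from a member by 1 base were mostly not active. All 70 members had at least 1 such tag in the table, 287 in all, of which 263 were eligible. Their H520 activities had a median of 0.091, from -0.77 to 2.81. All eligible tags had a median of -0.0015 and quartiles of -0.14 and 0.14, so the neighbours' median lay within the quartiles of the pool. Of the neighbours, 7 reached 1, and the share of all eligible tags that did so is not given here. Of these 7, 3 were neighbours of cgattgcgtcatggc, the upper tag least like its set and the member with the smallest p for BaP in H520. Their H520 activities were 2.46, 2.20 and 2.81, and they held 197, 113 and 329% of that member's own H520 RNA reads. They were the 3 tags at 1 mismatch with more reads than their member, and their part in its values was not tested.

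The eligible tags at 1 mismatch of gccattccgagaggc, the member with the highest H520 activity, are shown beside it, with the base that differs in capitals.
Tag gccattccgagaggc: gccattccgagaggc
Tag gccattccgaaaggc: gccattccgaAaggc
Tag gccattccgaggggc: gccattccgagGggc

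The first of the 2 neighbours had an H520 activity of 0.031 and an A549 activity of 0.023, with 906 reads in the H520 input. The second had 0.31 in H520 and 0.73 in A549, with 114 reads in the H520 input. The member itself had 4.16 and 2.39.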

How the data were processed

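Tags of luciferase transcripts and of the plasmid pool were sequenced as amplicons, per the labels' protocols, from cDNA of polyadenylated RNA or from plasmid DNA. The deposited count of a tag is its raw reads, and the deposited TPM is that count over the library total, as recomputed from all 22 files. The submitters' processing notes name bcl2fastq; how reads were matched to tags is not stated in these sources. Libraries held 177.6 to 371.4 M reads (M, mega).

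A tag missing from a library was set to a count of 0. The rule was applied with a pseudocount of 0.5 TPM. BaP was compared with DMSO by edgeR 4.0.16 (TMM, filterByExpr, robust quasi-likelihood) on all tags, with Benjamini-Hochberg adjustment over all tags tested and a threshold of 0.05. DESeq2 1.42.0, limma 3.58.1, other denominators, pseudocounts, centrings and left-out libraries were alternatives.

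The members, the comparison sets and the rule for named tags were chosen with earlier results of these data known. The tags named were those highest in H520 activity, line difference, read share or A549 activity, lowest in A549 activity, nearest the limits, with the smallest BaP p, or holding a listed motif. The labels do not tie transfections to separate cultures, so p-values measure the spread between these transfections, which may be technical. The main fits did not pair BaP with DMSO libraries by transfection number. The titles give the same numbers to both treatments but do not say what a number marks. Deviations of same-numbered libraries over all eligible tags correlated above 0.1 in 1 of 5 pairs in H520 and 3 of 5 in A549. Over the members they did so in 5 of 5 and 3 of 5. If the numbers mark pairs, the unpaired test counts variation shared by a pair as error. The 0 member calls in H520 therefore depend on this choice.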

Additional observations from a re-analysis of the deposited data

Results flagged for a closer look

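A library far from the other 4 of its group was searched for in 160 groups of 5 values, over the levels of the members and of the 2 sets and over the named members, and 4 were marked, where chance alone marks about 1 in 20. The median activity of the lower set in A549 with DMSO was highest in transfection 2, at 1.60, where the other 4 lay between 1.42 and 1.46. The activity of cgattgcgtcatggc in A549 with DMSO was highest in transfection 3, at 2.07, with the others between 1.70 and 1.79. In A549 with BaP, transfection 5 was the lowest for aagtttgatggcggc, at 1.56 with the others between 1.68 and 1.73, and for gtcgttacttgcggc, at 1.67 with the others between 1.83 and 1.88. The last 2 tags share that library, which was the lowest A549 library with BaP for 67 of 70 members.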

How the results depend on the processing

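The number of tags meeting the rule ranged from 49 with a pseudocount of 2 TPM to 105 with the A549 input as denominator in both lines, of which 67 were members. With a pseudocount of 0.1 TPM 92 tags met it, with own inputs 66, with DMSO libraries alone 69 and with BaP libraries alone 72, and leaving out 1 library gave 68 to 72. The median H520 activity of the members was 3.64 with a pseudocount of 2 TPM and 4.12 against the A549 input, in place of 3.85, and their median difference was 1.43 with own inputs, because the 2 inputs differ. Leaving out 1 library gave medians of 3.83 to 3.88 and 1.69 to 1.73. With transfection number as a replicate block, edgeR called 5 members higher and 0 lower with BaP in H520, among 86 higher (0.0384%) and 64 lower of all tags. They were gtataagcgataggc, aaacgatactgcggc, gctgctttagtaggc, ggagcgttatttggc and ggcgagcgttaaggc, with log2 fold changes of 0.073 to 0.089 and adjusted p of 0.0263 to 0.0498. Deviations of same-numbered H520 libraries correlated at 0.0439 to 0.159 over all eligible tags and at 0.285 to 0.883 over the members, and the best partner over all eligible tags bore the same number for 9 of 10 libraries in H520 and 5 of 10 in A549, a hint from the data that the design does not state. The block gave 0 member calls in A549 and in the interaction. DESeq2, other size factors, no filter, 1 fit over all groups and limma left 0 member calls in all 3 contrasts where each was run, as did leaving out 1 library. The median BaP fold change of the members in H520 then ran from 0.018 to 0.13 on the log2 scale. Leaving out transfection 3 of H520 in both treatments was chosen after seeing the data. Input counts limit the activity of the least covered tags most.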
